A study of Mus musculus with 6 samples.

Results

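Pml, Sp100 and Daxx encode proteins of the PML nuclear bodies, and their transcripts were followed in 6 liver libraries from C57BL/6 mice. They are 3 of the 8390 genes in the deposited table. They were chosen by their values in the comparison of livers exposed to a lentiviral vector (LV) with untreated livers, so those values are given as a description, with no test. The LV group is 3 libraries from mice that received 3e8 transducing units of the vector intravenously, with the liver taken 4 h later. The untreated group is 3 libraries from mice with no treatment; no mock-injected group is among the 6 samples, so the vector and the injection cannot be told apart. The sources used here give no age or sex of the mice and no promoter of the vector. RNA came from whole liver, and fewer cells of a type cannot be told apart from less RNA per cell. The labels do not say that the replicates of a group are separate animals, so p-values reflect only the scatter of these samples, part of which may be technical.

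PML nuclear bodies are small spheres in the nucleus that form when the PML protein is modified with SUMO and assembles into a shell, into which partner proteins are drawn through their SUMO-binding motifs. Sp100 is a permanent resident that also binds chromatin, and Daxx is an adaptor that works with Atrx to place the histone variant H3.3 on silenced DNA. The bodies are known for repressing incoming viral genomes, and PML and Sp100 are textbook interferon-stimulated genes.

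The stretches of DNA near each gene start show what the gene starts share and where they differ. They come from RefSeq promoter windows of build GRCm38.p6 (each 300 bases long, most of it before a start), and all 3 genes matched by symbol. The table lists 1 start site for Pml, 2 for Sp100 and 3 for Daxx. Bases inside any annotated exon were left off the longer stretches. The Sp100 site was not trimmed in this way and runs past base 85649947, the last before an annotated exon. Capitals mark the letters AANNGAAA or their reverse complement, the core recognised by interferon regulatory factors.
Pml, chr9:58249797-58250036, minus strand: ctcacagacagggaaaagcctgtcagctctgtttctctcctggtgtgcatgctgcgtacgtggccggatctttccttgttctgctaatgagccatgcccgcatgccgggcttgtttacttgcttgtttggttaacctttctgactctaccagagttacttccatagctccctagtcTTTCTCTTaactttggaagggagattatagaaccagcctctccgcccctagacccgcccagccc
Sp100 site, chr1:85649933-85649962, plus strand: agaattacTTTCGTTTTTCTTTTccccatc
Daxx, chr17:33909318-33909403, plus strand: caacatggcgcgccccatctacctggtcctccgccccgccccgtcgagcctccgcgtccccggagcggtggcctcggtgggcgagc
The Pml window held 1 match to the core, starting 74 bases before the start site. Each Sp100 window held 2 matches that share a base, and no Daxx window held any. The second Sp100 match began at position -40 from the first start site, the first annotated exon base. The core is a short motif: 26.7% of 27025 genes had a match on either strand in at least 1 window. It was added after the data and sequences had been seen. The full interferon-stimulated response element, searched as the letters GAAA, any 2 bases and again GAAA, was in none of the 6 windows of the 3 genes, against 3.99% of all genes; any match to it also contains the core. The gamma-activated site, searched as TTCNNNGAA, was also in none of them, against 9.55% of all genes. The Daxx windows were also rich in G and C, at a median of 69.7%, against 53.7% in the Pml window, 48.3% in those of Sp100 and 52.7% over all 32851 windows. These are matches of letters in short windows, and binding was not measured.

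All 3 transcripts lay higher in every LV library than in any untreated one. Values are in the unit of the deposited table, a rounded score that appears to be scaled for library size and transcript length. Of all 8386 genes tested, 8.65% were also higher in every LV library; because the genes were chosen for this contrast, nothing is read from that count.

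Pml, the scaffold of the bodies, had values of 49, 55 and 44 in LV replicates 1, 2 and 3 and of 13, 9 and 7 in untreated replicates 1, 2 and 3. The lowest LV value was 3.38 times the highest untreated one. The means were 49.3 ± 5.51 and 9.67 ± 3.06 (SD, n = 3 each), a ratio of 5.10. Rounding alone leaves that ratio between 4.80 and 5.44. Pml was the member with the widest spread among untreated livers, with a coefficient of variation of 31.6%, against 11.2% in LV livers. On the log2(value + 1) scale, on which changes of low genes appear too small, the difference was 2.27 ± 0.22 (SE).

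Daxx, the adaptor and H3.3 chaperone, had values of 67, 51 and 39 in LV replicates 1, 2 and 3 and of 7, 8 and 7 in the untreated livers. The untreated livers were nearly alike and the LV livers were not: the highest LV value was 1.72 times the lowest. The ratio of the means was 7.14, from 7.33 ± 0.577 to 52.3 ± 14.0 (SD, n = 3 each), and between 6.62 and 7.73 within rounding. The log2 difference was 2.65 ± 0.21 (SE). Of the 8386 genes tested, 0.906% had a difference at least as large, against 1.14% for Pml and 2.54% for Sp100. These genes were chosen for this contrast, so the shares only give their place and are not p-values.

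Sp100, the permanent resident, had values of 17, 17 and 18 in the LV livers and of 5, 7 and 6 in untreated replicates 1, 2 and 3. The LV values differed by no more than 1 unit. The means were 17.3 ± 0.577 and 6.00 ± 1.00 (SD, n = 3 each), a ratio of 2.89 that rounding leaves between 2.59 and 3.24. The log2 difference was 1.40 ± 0.13 (SE), below that of Pml and Daxx. In the GRCm38 annotation an antisense gene, Gm17017, overlaps Sp100, and Sp110 and Sp140, relatives of Sp100, lie next to it. Whether the counting used strand, and how it treated reads shared between relatives, is not given, so the Sp100 values are uncertain to that extent. Sp110 and Sp140 were not found among the deposited genes by symbol or by a unique synonym, so they were not analysed here.

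**Figure D1:**
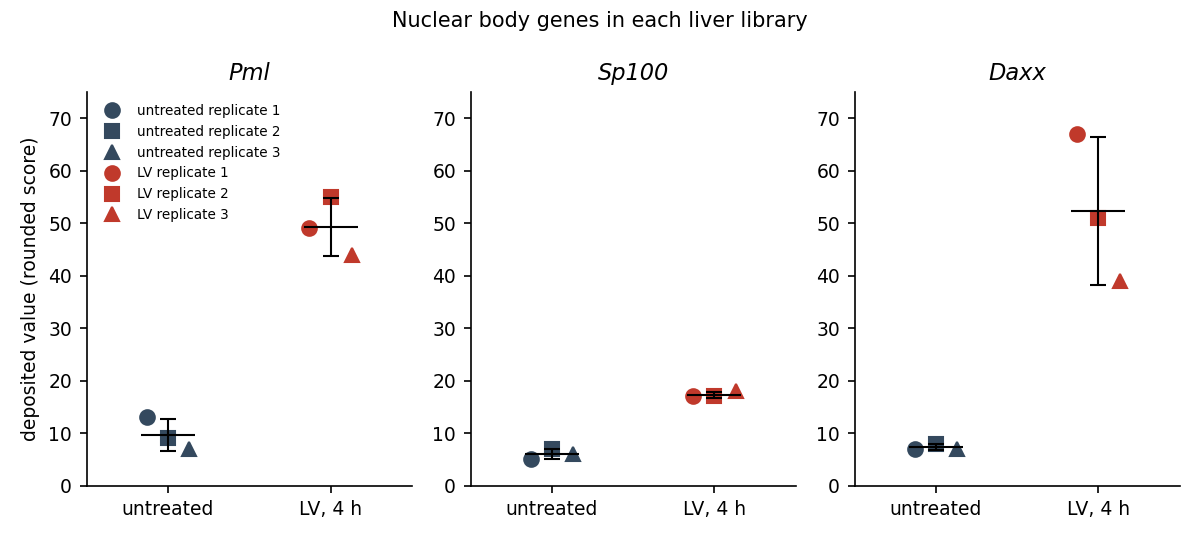
Deposited value (rounded score, linear axis from 0) of Pml, Sp100 and Daxx in the 3 untreated and 3 LV liver libraries; each marker is a library, the long bar is the mean and the whiskers are 1 SD. No LV value overlaps an untreated one, the LV values of Sp100 sit at 17 to 18, and those of Daxx spread from 39 to 67.

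Sp100 had the lowest mean of the 3 transcripts in both groups, and the order of Pml and Daxx varied between libraries. In untreated livers the means ran from Sp100 (6.00) over Daxx (7.33) to Pml (9.67), and neighbours in that order had ranges that met. In LV livers Sp100 was lowest in every library, while Pml and Daxx had overlapping ranges of 44 to 55 and 39 to 67. Within a library the value of Daxx divided by that of Sp100 was between 1.14 and 1.40 in untreated livers. In LV livers it was 3.94, 3.00 and 2.17 in replicates 1, 2 and 3, each above the untreated ratios. The genes were chosen for this contrast, so nothing is read from that separation. Pml divided by Sp100 overlapped, at 1.17 to 2.60 and 2.44 to 3.24. Daxx divided by Pml overlapped too, at 0.538, 0.889 and 1.00 in untreated replicates 1, 2 and 3. In LV replicates 1, 2 and 3 it was 1.37, 0.927 and 0.886, so Daxx was above Pml in LV replicate 1 alone. As levels among all 8390 genes, the 3 transcripts ranked lower in untreated than in LV livers: 57.8%, 74.8% and 67.9% of genes had an untreated mean at least that of Pml, Sp100 and Daxx, and 14.8%, 36.8% and 14.0% had an LV mean at least that high.

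The LV livers did not carry the 3 transcripts in the same proportions. Daxx was highest in LV replicate 1 and lowest in LV replicate 3, Pml was highest in replicate 2 and lowest in replicate 3, and Sp100 was highest, by 1 unit, in replicate 3. Among the 315 genes called higher in LV livers, LV replicate 3 was strictly lowest for 229 and strictly highest for 20. Pml and Daxx were lowest in that library too, and Sp100 was not. Across the 6 libraries Pearson's r of log2 values was 0.967 for Pml and Daxx, 0.938 for Pml and Sp100 and 0.971 for Sp100 and Daxx, as a description over libraries that share the treatment contrast.

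Some libraries stood apart on other grounds. LV replicate 3 and untreated replicate 2 had summed values of 355 and 295 for the male-biased liver genes Elovl3 and Cyp4a12a, against at most 6 in each of the others. The female-biased Cyp2b9 ran the opposite way, at 8 and 5 in these libraries and at 121 to 157 in the others. For the Y-linked Ddx3y, untreated replicate 3 was listed at 0 and the remaining libraries at 10 to 14. No LV value of the 3 nuclear body genes overlapped an untreated one, so any split of the libraries gives higher values after LV. Whether the difference in these sex-biased genes bears on the rise was not tested. Between LV replicate 3 and untreated replicate 2, a single library each, the ratio was 4.89 for Pml, 2.57 for Sp100 and 4.88 for Daxx. Between the means of the remaining libraries it was 5.20, 3.09 and 8.43. The log2 differences of the 3 genes without LV replicate 3 and untreated replicate 2 were 2.32, 1.47 and 2.89.

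The liver markers were as labelled, and each hepatocyte marker lay above every marker of other cell types. Those other markers ranged widely, in untreated livers from a mean of 1.67 for Ptprc to 61.0 for Clec4f. The 6 hepatocyte markers summed to between 69266 and 78919 after LV and between 74041 and 99016 without it. The 7 Kupffer cell markers had sums of 66 to 169 and 140 to 198, and the 5 of sinusoidal endothelium to 44 to 82 and 94 to 105. None of these was at 0, and none passed the test on its own in limma (adjusted p from 0.0603 upward). The sums join markers that went different ways. Among endothelial markers Clec4g had 11, 43 and 33 in LV against 55, 54 and 58 in untreated livers, and Lyve1 10, 5 and 5 against 3, 3 and 2. Among hepatocyte markers the log2 difference was 0.90 for Fga and -0.61 for Cyp2e1. The 4 stellate cell markers summed to 58 to 66 in LV and 65 to 79 in untreated livers. Only 1 of 7 leukocyte markers could be used, Ptprc, at 1 to 3. The part of other cells in the nuclear body values was not tested.

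Among the proteins that live in or visit the bodies, most transcripts did not pass the test. Of 46 listed partners 40 were measured; 3 rose, 1 fell and 36 did not pass (limma on log2(value + 1), p adjusted over the whole table, threshold 0.05). Over all 8386 genes 4.63% were called, 3.76% higher and 0.87% lower; the partners' share was 10%. The median difference of the partners was -0.05, beside -0.07 for all genes tested. It was 2.27 for Pml, Sp100 and Daxx, which were chosen for this contrast, so nothing is read from that gap. In 4 of the 40 partners every LV value lay above every untreated value, near the 8.65% of all genes, and in 1 every LV value lay below, beside 11% of all genes.

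Isg20, an interferon-stimulated exonuclease that has been found in the bodies, had 35, 31 and 22 in the LV and 6, 3 and 2 in the untreated livers. It rose by 2.77 ± 0.36 (SE) on the log2 scale (limma adjusted p = 0.0150), the partner with the largest difference. Its groups did not overlap. Trp53, the tumour suppressor p53, which Pml helps to activate, had 21, 22 and 20 against 14, 13 and 12. It rose by 0.65 ± 0.09 (SE, limma adjusted p = 0.0191). Mdm2, the ligase that degrades p53, had 13, 12 and 12 against 9, 11 and 8 (limma adjusted p = 0.193).

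The histone H3.3 that Daxx handles is encoded by a pair of genes that gave different readings. H3f3b had 89, 79 and 58 in LV replicates 1, 2 and 3 and 35, 32 and 36 in the untreated livers, and rose by 1.09 ± 0.17 (SE, limma adjusted p = 0.0308). H3f3a had 26, 24 and 21 against 28, 26 and 32, a difference of -0.27 ± 0.12 that did not pass (limma adjusted p = 0.297). The difference between these genes' responses was not tested. LV replicate 3 was lowest among LV livers for H3f3b, as it was for Daxx. It was strictly lowest for 229 of the 315 genes called higher.

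The other H3.3 factors stayed near their untreated values. Atrx, the remodeller that acts with Daxx, had 4, 4 and 6 against 5, 7 and 5 (-0.24 ± 0.19 SE). It did not pass in the full comparison (limma adjusted p = 0.544), although it was called lower once LV replicate 3 and untreated replicate 2 were both left out. Hira, a chaperone that deposits H3.3 at active genes, had 5, 5 and 5 against 4, 6 and 5. Rad50, a DNA repair protein that gathers at the bodies, had 2 in each LV and 3 in each untreated liver, which is a single step of rounding. It was called lower (limma adjusted p = 0.00987). The call was lost when values were scaled to equal totals or by median of ratios (adjusted p = 0.10 and 0.128). It was also lost without LV replicate 2 (0.0520) and with the replicate number as a block in the fit (0.105).

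The 3 partner calls that went upward were each lost in most fits with 1 library left out. Leaving out LV replicate 1 or LV replicate 2 gave none of them, with adjusted p up to 0.0964 for Isg20, 0.102 for Trp53 and 0.144 for H3f3b. The same held without untreated replicate 3 (0.0580, 0.0575 and 0.117). Leaving out untreated replicate 2 gave 0.0734, 0.0573 and 0.105. In place of these calls it gave Morc3, an ATPase of the bodies with 8, 9 and 9 against 5, 8 and 5 (adjusted p = 0.0310). It also gave the deacetylase gene Sirt1, with 3, 3 and 3 against 2, 3 and 2, a single step of rounding. With untreated replicate 1 left out, H3f3b alone of the 3 was above the threshold (0.122). Without LV replicate 3 and untreated replicate 2 together, the limma adjusted p was 0.130 for Isg20, 0.0994 for Trp53 and 0.0340 for H3f3b. Calls also fell over all genes: 315 were higher with every library, 149 without LV replicate 1 and 119 without LV replicate 2. Without untreated replicate 3 there were 168. With single libraries left out, the log2 difference was 2.49 to 3.11 for Isg20, 0.60 to 0.70 for Trp53 and 0.96 to 1.27 for H3f3b.

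SUMO is the modification that holds the bodies together, and the median difference of the genes that attach and remove it was 0.01. Of 24 listed genes 21 were measured and 0 passed in limma; with 4.63% of all genes called, a count of 0 among so few is near the background. Only 1, the ligase gene Pias3, had an unadjusted p under 0.05, with 3, 4 and 6 in the LV livers against 7, 6 and 8 (adjusted p = 0.227). Sumo3, a SUMO protein that forms chains, had 32, 26 and 29 against 32, 27 and 25. Senp6, a protease that trims SUMO chains, had 6, 6 and 6 against 5, 7 and 6, and Rnf4, the ligase that marks SUMO-modified Pml for degradation, had 37, 36 and 42 against 38, 46 and 39. Senp1, a SUMO protease, had 3, 3 and 2 against 2 in each untreated liver; it passed only without LV replicate 3 (adjusted p = 0.0157), and without that library and untreated replicate 2. Of the 21 SUMO genes 20 had a difference under 0.5 in size.

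Genes of other nuclear bodies were also called at a share near the background of 4.63%. Of 27 listed for Cajal bodies, paraspeckles, speckles and nucleoli, 23 were measured and 0 passed in limma, with 1 at an unadjusted p under 0.05. That gene was Lsm10, a protein of the histone-mRNA processing particle, with 7, 9 and 10 in the LV livers against 15, 15 and 14 (-0.71 ± 0.14 SE, adjusted p = 0.0552). It passed with genes of a mean of at least 5 only, with scaling by median of ratios and with quantile normalization. Sfpq, a paraspeckle protein, had 29, 21 and 20 against 15, 21 and 16 (adjusted p = 0.314), and Nono, its partner, 27, 25 and 24 against 23, 24 and 22.

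The path from interferon receptors to the nucleus, through which PML and Sp100 are known to be induced, was called in 8 of 15 measured genes, all higher, with a median difference of 0.72; of all genes 3.76% were called higher and the median was -0.07. Leaving out single libraries gave between 4 and 7 calls, the fewest without LV replicate 2 or untreated replicate 1. Irf7, a transcription factor that amplifies interferon production, had 181, 201 and 143 in the LV livers against 15, 28 and 14 (3.19 ± 0.29 SE, limma adjusted p = 0.00486), and it passed in all 14 alternatives. Stat2, a factor that carries the signal to the nucleus, had 61, 59 and 55 against 21, 20 and 18 (1.52 ± 0.09 SE, limma adjusted p = 0.00144), and Irf1, an interferon-induced transcription factor, 92, 81 and 77 against 21, 17 and 15 (2.18 ± 0.15 SE, limma adjusted p = 0.00178, and 0.0526 with LV replicate 3 and untreated replicate 2 left out). The receptor subunits Ifnar1 and Ifnar2 did not pass, at 8, 8 and 8 against 7, 8 and 7 and at 70, 67 and 64 against 72, 61 and 64.

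The genes with the nearest profiles differed from member to member. Likeness was the Euclidean distance between log2(value + 1) profiles centred on each gene's mean over the 6 libraries, taken over genes whose mean was 5 or more. For Pml the nearest were BC006779 (distance 0.331, r = 0.993), Irf1 (0.368), Ddx58 (0.443), Zufsp (0.467) and Zc3hav1 (0.480). Ddx58 encodes the viral RNA sensor RIG-I, with 49, 49 and 46 in the LV livers against 10, 10 and 8, and Zc3hav1 the antiviral zinc-finger protein ZAP, with 60, 56 and 49 against 12, 13 and 9.

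For Daxx the nearest profile was that of Mlkl, the effector of necroptosis (distance 0.160, r = 0.999), with 25, 18 and 14 in LV replicates 1, 2 and 3 and 2 in each untreated liver. Samhd1, which depletes nucleotides (0.258), Trim34 (0.263), the peptide transporter subunit Tap1 (0.278) and Parp11 (0.299) followed. In each of these 5 genes, as in Daxx, LV replicate 1 was highest and LV replicate 3 lowest. The 5 were picked for likeness to Daxx, so nothing is read from that shared order. Among the 315 genes called higher, LV replicate 1 was strictly highest for 185 and LV replicate 3 strictly lowest for 229.

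For Sp100 the nearest was Setdb2, a histone methyltransferase (distance 0.167, r = 0.999), with 13, 13 and 14 against 4, 6 and 5. Pxk (0.275), the ubiquitin ligase gene Rnf135 (0.348), Cd47, the surface signal against phagocytosis (0.359), and Tbk1, the kinase that activates interferon production (0.365), came next. In Setdb2 and Pxk, as in Sp100, LV replicate 3 was highest of the LV livers, whereas in Rnf135, Cd47 and Tbk1 it was lowest. All of these genes were picked for likeness to the member's profile. The members were not each other's closest: Daxx was at place 55 in the order of nearness to Pml and Sp100 at place 142. In the order of nearness to Sp100, Pml was at place 599 and Daxx at place 1612. From Daxx, Pml was at place 47 and Sp100 at place 155. Each order was taken among the 6781 genes with a mean of 5 or more. These points share libraries and the treatment contrast.

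**Figure D2:**
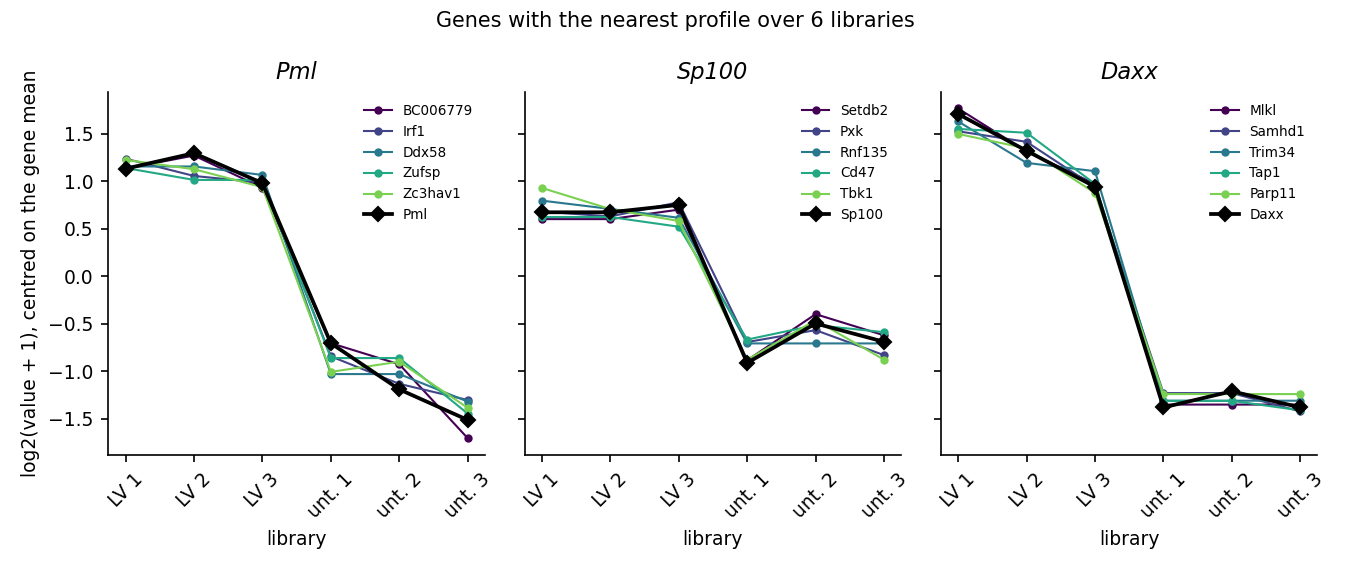
log2(value + 1) of each member (black diamonds) and its 5 nearest genes (coloured circles), centred on each gene's mean over the 6 libraries; lines only join the points of a gene and replicates have no order. The coloured genes were picked for likeness to the member's profile. All 5 genes beside Daxx are highest in LV replicate 1 and lowest in LV replicate 3. Of the 5 beside Sp100, 2 are highest in LV replicate 3 and 3 are lowest there.

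Beside these genes on the chromosome, an adjacent gene rose at the Pml locus. Of the 24 protein-coding genes within 4 places of a member in the gene order of GRCm38, 8 were measured: 1 near Pml, 2 near Sp100 and 5 near Daxx. Stoml1, a stomatin-like membrane protein gene, is next to Pml, lies on the opposite strand and does not overlap it in the annotation. It had 12, 14 and 14 in the LV livers against 5, 4 and 4, and rose by 1.43 ± 0.12 (SE, limma adjusted p = 0.00322). The call held with any 1 library left out (adjusted p up to 0.0317) but not without LV replicate 3 and untreated replicate 2 (0.0643). It was also lost with the replicate number as a block in the fit (0.0642).

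At the Daxx locus the measured genes were mixed. Zbtb22, the next gene on the same strand, had 10, 11 and 12 against 11, 11 and 12 (limma adjusted p = 0.837). Tapbp, the next after it, encodes tapasin, which loads peptides on class I molecules. It had 120, 98 and 68 in LV replicates 1, 2 and 3 against 38, 35 and 31, and rose by 1.40 ± 0.22 (SE, limma adjusted p = 0.0319). The Tapbp call held without LV replicate 3 and was lost without any 1 of the other libraries (adjusted p up to 0.148). It was also lost without LV replicate 3 and untreated replicate 2 together (0.0643), and with the replicate number as a block (0.0609). Rgl2 had 5 in each LV liver against 7, 6 and 7 (-0.35 ± 0.08 SE, limma adjusted p = 0.0945, and 0.0349 without untreated replicate 2), and Pfdn6 had 32, 32 and 31 against 34, 32 and 37. Near Sp100, Cab39 had 14, 13 and 16 against 11, 15 and 11, and Itm2c had 33, 35 and 24 against 34, 24 and 29; neither passed.

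**Figure D3:**
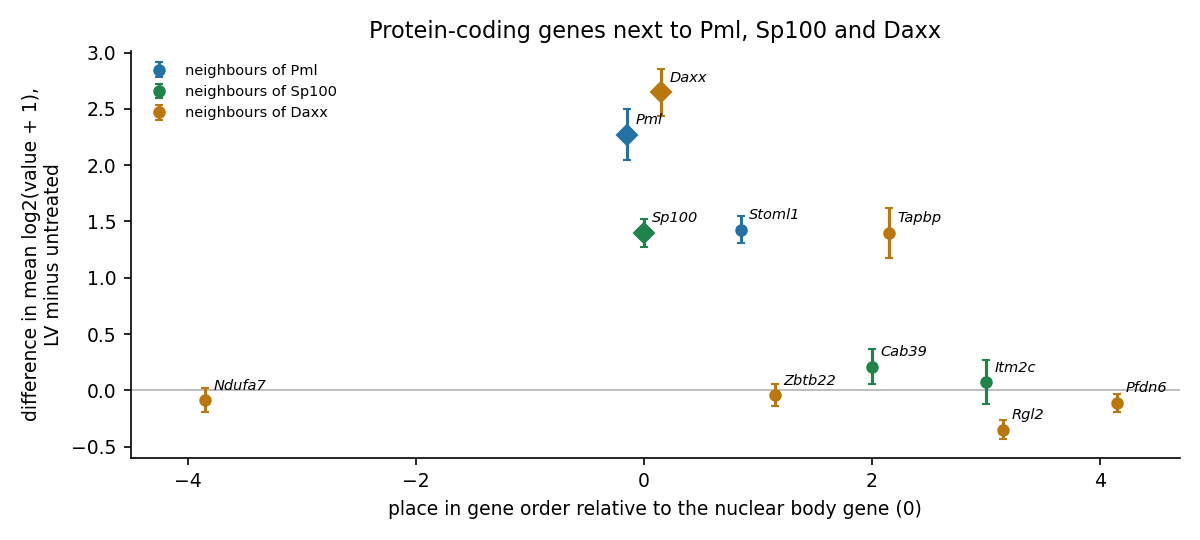
Difference in mean log2(value + 1), LV minus untreated, of the measured protein-coding genes up to 4 places on either side of Pml, Sp100 and Daxx (circles) and of the members (diamonds at place 0), with whiskers of 1 SE. Stoml1 (1.43) and Tapbp (1.40) stand well above 0 and Zbtb22, between Daxx and Tapbp, does not.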

How the data were processed

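Per the labels' protocols, 6 liver libraries were made from total RNA with a TruSeq kit. The submitters' processing notes name build mm9, with the aligner, annotation and counting method not given in the sources used here. What the authors deposited is 1 table of whole numbers, treated here as a score: column totals were nearly alike (497295 to 526009) and the variance over the mean of genes with a mean of 2 to 5 was 0.255 in LV and 0.245 in untreated livers, below that of counted reads. The depth is therefore unknown. Scaling by length is read from the lowest levels: the first percentile of the mean fell from 6.17 for the shortest transcripts (decile 1 of length) to 1.00 for the longest (decile 10). Columns were matched to samples by description.

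The test covered 8386 of 8390 genes, those reaching 1 in 3 or more samples. log2(value + 1) was fitted by group in limma 3.58.1 (R 4.3.3) with a variance trend, two-sided, with Benjamini-Hochberg adjustment; the fit was tested on simulated data. Of 112 list entries 99 were found, 8 by a unique synonym. Members, lists and alternatives were chosen with earlier results of these data known. Named were the members, called list genes, some further list genes with the smallest p, a fixed set, and profile and genome neighbours; some were left out for length, and a few are not reported here. Promoter windows are RefSeq's, build GRCm38.p6; no file coordinates were converted.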

Additional observations from a re-analysis of the deposited data

How the results depend on the processing

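The log2 differences of Pml, Sp100 and Daxx stayed positive in all 14 alternatives. The genes were chosen for this contrast and their groups did not overlap, so that sign is no check of them. With the replicate number as a block, with no filter and with a mean of at least 5 the differences cannot change. They moved by less than the larger of the SDs of their groups on the log2 scale (0.41 for Pml, 0.21 for Sp100 and 0.38 for Daxx), and, in at least 1 alternative for each gene, by more than the smaller (0.16, 0.045 and 0.098). With single libraries left out they ranged from 2.08 to 2.49 for Pml, from 1.29 to 1.50 for Sp100 and from 2.45 to 2.84 for Daxx; with a pseudocount of 0.1 they were 2.38, 1.53 and 2.79. The counts of calls moved more. Leaving out single libraries gave 119 to 313 higher and 10 to 116 lower genes in all (315 and 73 with every library), 0 to 3 higher and 0 to 1 lower nuclear body partners, 0 to 1 higher SUMO genes and 4 to 7 higher interferon signalling genes. The replicate numbers share only a number: correlations of deviations between same-numbered libraries were 0.276, -0.470 and -0.336. With the replicate number as a block, 145 genes were higher and 11 lower, among them 1 higher and 0 lower partners and 5 higher interferon signalling genes. Without LV replicate 3 and untreated replicate 2 together, 136 genes were lower in all, 2 partners were lower and 1 SUMO gene was higher. With a mean of at least 5, and when scaled by median of ratios, 0 partners were lower and 1 gene of other bodies was lower; with scaling to equal totals 0 partners were lower, and with quantile normalization 1 gene of other bodies was lower. Genes near 0 turned sign without a call. With single libraries left out, Sumo3 lay between -0.0238 and 0.148, Zbtb22 between -0.101 and 0.0192, Itm2c between -0.0510 and 0.235, Hira between -0.111 and 0.132 and Senp6 between -0.0963 and 0.111. By median of ratios Zbtb22 was 0.00652, and with quantile normalization Hira was -0.0134 and Senp6 -0.00409. The cause of these moves was not tested. DESeq2 was not run because the values are not counts. Depth is unknown, and rounding to whole numbers limits genes with values of a few units, such as Rad50.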
